A study of Mus musculus with 12 samples.

Results

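Genes for secreted or membrane-shed synapse factors of astrocytes were followed in RNA-seq of primary astrocytes cultured from mouse brain: the thrombospondins *Thbs1*, *Thbs2* and *Thbs3*, the matricellular genes *Sparc* and *Sparcl1*, the glypicans *Gpc4* and *Gpc6*, and *Chrdl1*. They were taken by gene symbol from a table of counts per gene, and all 8 of them were found among its 18903 genes and passed the filter on low counts. Astrocytes had been grown from WT mice, hGFAP-Cre::*Rack7*+/+ per the methods, and from *Rack7*-cKO mice, hGFAP-Cre::*Rack7* fl/fl, at postnatal day 1 (P1), P6 and P8, with 2 biological replicates in each of the 6 groups. The question put by the design was how loss of RACK7, a chromatin reader, alters the transcriptome of astrocytes as they develop. Both genotypes carried the Cre, which a human GFAP promoter drives in neural stem cells of the dorsal forebrain and so in the neurons and glia that descend from them. The floxed allele was made in C57BL/6 zygotes. Meninges were stripped from the tissue, and the cultures were shaken to remove microglia and oligodendrocytes and then grown to confluence before RNA was taken. P1, P6 and P8 are thus ages of the donor mice at dissection, followed by growth in culture. Each age has its own cultures, so donor age cannot be told apart from differences between cultures. The study used mice of both sexes, and the sources used here do not give the sex or the number of animals behind each culture, so the p-values measure the spread between these samples.

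Synapses of the developing brain form and mature under the influence of proteins that astrocytes release. Thrombospondins act through the neuronal receptor α2δ-1 and induce synapses that are structurally complete but lack AMPA receptors. Hevin, the product of *Sparcl1*, bridges neurexin and neuroligin across the cleft, and SPARC antagonizes hevin. Glypicans 4 and 6 are heparan sulfate proteoglycans that recruit AMPA receptors to the synapse, and Chordin-like 1 favours the switch to calcium-impermeable AMPA receptors that accompanies maturation. Thrombospondins, SPARC and glypicans are also made by fibroblasts and other cells of connective tissue.

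Counts per library summed to between 54413504 and 89183250. RACK7 is encoded by *Zmynd8*, whose count over the whole gene was higher in the libraries labelled cKO at P1, P6 and P8 (log2 difference 0.65, 1.04 and 0.70). The count thus does not show the loss, but Cre removes only some exons, and a whole-gene count does not show whether these were present. For primary astrocytes of this model, the paper reports RACK7 immunoblots that checked the knockout and far fewer RACK7 ChIP-seq peaks under cKO. As the counts cannot check the genotype, the libraries are called by their labels throughout. Each of 9 astrocyte markers had counts in all 12 libraries, which cannot tell a pure culture from a mixed one. Summed CPM (defined below) of the astrocyte markers and of the fibroblast and meningeal markers was 2234 and 373 in P1 WT. In P8 WT the sums were 1758 and 25798. In P8 cKO they were 695 and 8225, beside 3883 for microglial markers. Each sum depends on the genes listed. Values of the microglial, fibroblast and meningeal markers are given beside the results they move with.

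Levels are in CPM, read counts scaled by TMM-normalized library size to a common total, and are divided by gene length where genes are compared. Genes were called up- or down-regulated at an adjusted p below 0.05 (edgeR's quasi-likelihood test, Benjamini-Hochberg over 17938 genes) with a fold change of at least 1.5. Differences are log2 of the cKO label over the WT label, with the standard error. In bulk RNA, fewer cells that express a gene and less RNA per cell cannot be told apart.

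At P1, 2 of the 8 genes were called, *Thbs1* and *Thbs2*, both up-regulated in the libraries labelled cKO, where 4.90% of all genes tested were called (4.01% up, 0.892% down). At P6, 4 of the 8 were called against 13.5% of all genes (7.16% up, 6.38% down): *Thbs1*, *Thbs3* and *Sparc* were up-regulated and *Thbs2* was down-regulated. At P8, 6 of the 8 were called against 19.6% of all genes (11.2% up, 8.37% down). *Thbs2*, *Thbs3*, *Sparcl1* and *Gpc6* were then down-regulated, and *Gpc4* and *Chrdl1* up-regulated. The 8 genes had a median difference of 0.38, 0.22 and −0.57 in order of age, beside 0.00, 0.00 and 0.01 over all genes. In absolute size the medians of the 8 were 0.44, 0.72 and 0.70, beside 0.18, 0.27 and 0.33 over all genes.

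**Figure D1:**
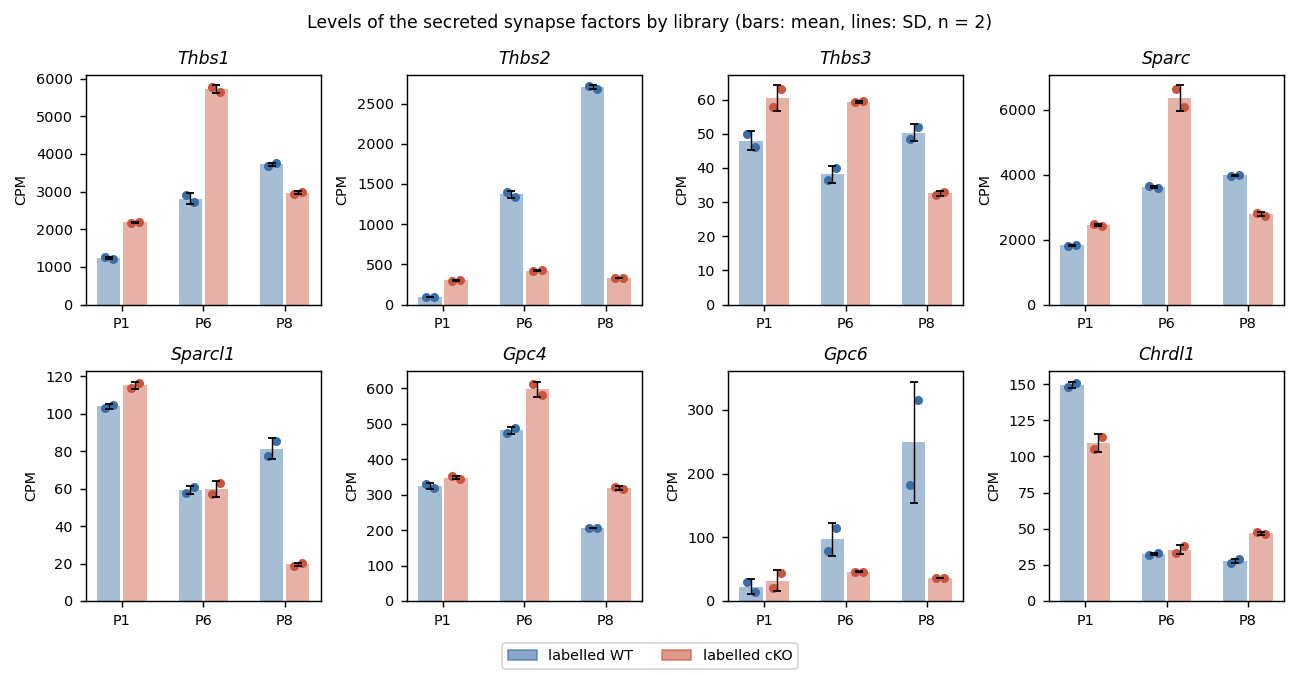
CPM of each gene in every library (points), with the mean (bars) and SD (lines) of the 2 libraries of a group, by time point and label; each panel has its own axis from 0. *Thbs2* is higher at each later donor age in the libraries labelled WT, from 94.7 to 2700 CPM, and stays between 295 and 426 CPM in those labelled cKO.

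**Figure D2:**
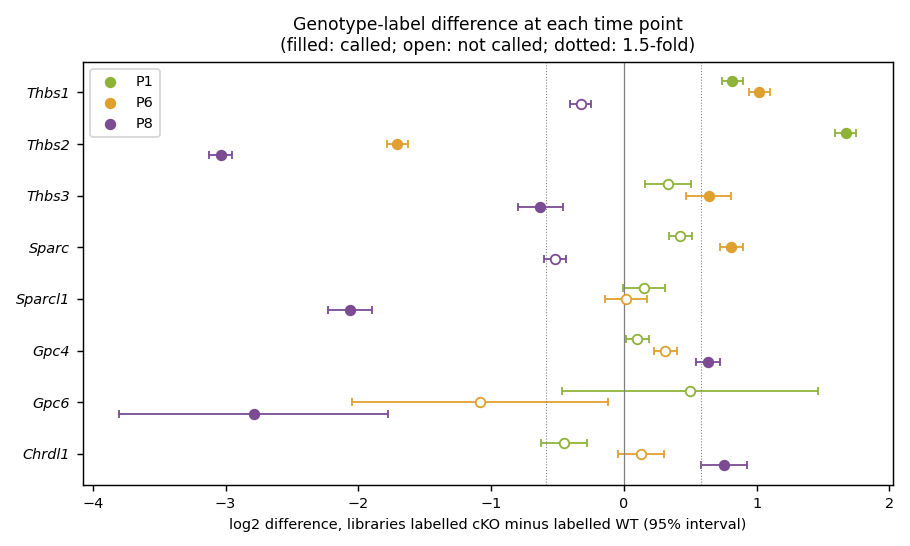
Log2 difference of the libraries labelled cKO from those labelled WT for each gene and time point, with the 95% interval; filled points passed both the adjusted p and the 1.5-fold condition (dotted lines). *Thbs2* lies at 1.67, −1.71 and −3.04, while the intervals of *Gpc6* are the widest shown, from −3.80 to −1.78 at P8.

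The 5′ ends of *Thbs2* and *Gpc4* are shown because these genes were down- and up-regulated, respectively, at P8. RefSeq windows of 250 bases before to 50 bases after the start (GRCm38.p6) matched 4 of the 8 genes, *Thbs2*, *Thbs3*, *Sparc* and *Gpc4*. The *Thbs2* window is chr17:14694213-14694512 on the minus strand and that of *Gpc4* is chrX:52164874-52165173, also on the minus strand. The *Gpc4* window lies wholly inside the span that GENCODE gives the gene (chrX:52053021-52165252). Positions before the start therefore refer to the RefSeq start. Both are printed 5′ to 3′ on the gene's strand, with motif matches on either strand in capitals.
Thbs2: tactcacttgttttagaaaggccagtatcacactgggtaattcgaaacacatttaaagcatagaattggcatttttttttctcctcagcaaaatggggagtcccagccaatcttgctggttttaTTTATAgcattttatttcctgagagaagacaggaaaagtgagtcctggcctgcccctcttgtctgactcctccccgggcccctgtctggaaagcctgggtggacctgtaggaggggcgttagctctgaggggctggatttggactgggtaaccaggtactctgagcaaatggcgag
Gpc4: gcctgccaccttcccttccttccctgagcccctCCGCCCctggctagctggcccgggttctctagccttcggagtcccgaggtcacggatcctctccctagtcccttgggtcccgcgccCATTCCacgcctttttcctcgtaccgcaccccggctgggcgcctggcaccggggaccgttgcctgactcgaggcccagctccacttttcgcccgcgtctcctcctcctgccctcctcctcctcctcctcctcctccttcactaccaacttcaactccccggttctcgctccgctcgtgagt
The capitals in *Thbs2* mark TATAAA read on the opposite strand, the letters of a TATA box, 126 bases before the start, and 13.6% of 32851 promoter windows held this string. In *Gpc4* they mark the GC box GGGCGG on the opposite strand, 217 bases before the start and found in 35.7% of windows, and the TEAD string CATTCC, 131 bases before the start and found in 14.7%. The searches for TGANTCA (AP-1, 7.81% of windows), CTTTGAT (TCF/LEF, 3.73%) and TGACGTCA (CRE, 1.79%) gave no match in either window, which says only that these letters are not in it. No motif string contains another. *Gpc4* holds 22 CG dinucleotides and *Thbs2* holds 4, where the median window holds 7.

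*Thbs1* (ENSMUSG00000040152, GRCm38 chr2:118111876-118127133, plus strand) encodes the trimeric thrombospondin best known for inhibiting angiogenesis and activating TGF-β. Its CPM at P1 was 1259.6 and 1218 for WT versus 2172 and 2190.4 for cKO. The P6 pairs were 2913 and 2716 versus 5785 and 5639.6, and the P8 pairs 3691 and 3747 versus 2939.9 and 2998. Both cKO-labelled libraries were above both WT-labelled ones at P1 and P6 and below them at P8, with no overlap. *Thbs1* was up-regulated 1.76-fold at P1 (0.82 ± 0.035, adjusted p = 1.22e-06) and 2.03-fold at P6 (1.02, adjusted p = 9.88e-08). At P8 the difference was −0.32 (adjusted p = 8.87e-05), which did not reach 1.5-fold. From P1 to P6 it was up-regulated under both labels, by 1.18 for WT and 1.39 for cKO on the log2 scale. It was then down-regulated by P8 under the cKO label (−0.94, adjusted p = 7.98e-08), where the WT label gave 0.40. Its span overlaps the annotated *Gm29233*, and the sources used here do not say how shared reads were counted.

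*Thbs2* (ENSMUSG00000023885, GRCm38 chr17:14665500-14694235, minus strand) encodes the closest relative of thrombospondin 1, a trimer that binds matrix metalloproteinase 2 and shapes collagen fibrils. It had the largest differences among the 8 genes at each of the 3 time points. CPM was 93.8 and 95.6 versus 295 and 308 at P1, WT label first. The P6 pairs were 1401 and 1339 versus 414 and 426, and the P8 pairs 2717 and 2683 versus 328 and 329.6. The labels did not overlap at any time point, and the order of the labels at P1 was the opposite of that at P6 and P8. *Thbs2* was up-regulated 3.18-fold at P1 (1.67 ± 0.035, adjusted p = 1.21e-08), and down-regulated 3.26-fold at P6 (−1.71 ± 0.035, adjusted p = 5.57e-09) and 8.22-fold at P8 (−3.04 ± 0.037, adjusted p = 5.43e-10). The steps between donor ages showed the same contrast. With the WT label it was up-regulated 14.5-fold from P1 to P6 (adjusted p = 4.16e-11) and a further 1.97-fold to P8 (adjusted p = 8.52e-08). With the cKO label the steps were 0.48 and −0.35 on the log2 scale, both under 1.5-fold.

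Most markers of fibroblasts differed between the labels in the same direction as *Thbs2* at all 3 time points. Of 11 fibroblast and meningeal markers 10 were tested, and 8 were up-regulated at P1, 8 down-regulated at P6 and 7 down-regulated at P8, with 1 up-regulated at P8. Their summed CPM was 367 to 379 against 2409.7 to 2447 at P1, WT label first. It was 6609.7 to 6664 against 2413 to 2589 at P6, and 25732 to 25864 against 8100.3 to 8349.7 at P8. *Col3a1*, a fibrillar collagen, had differences of 3.52, −5.63 and −2.11. *Dpt*, the marker up-regulated at P8 (adjusted p = 0.0492), averaged only 0.054 CPM over all libraries and had no count in any labelled WT. *Lum*, which encodes the proteoglycan lumican, had no count in either P6 library labelled cKO. The collagen markers *Col1a1* and *Col1a2* were at 1544 and 904 CPM in that group. The part of these cells in the *Thbs2* result was not tested.

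*Thbs3* (ENSMUSG00000028047, GRCm38 chr3:89215180-89226837, plus strand, overlapping *Mtx1*) encodes a pentameric thrombospondin. CPM was 49.9 and 46.1 (WT) versus 57.9 and 63.1 (cKO) at P1, then 36.4 and 39.8 versus 59.2 and 59.5 at P6, then 48.5 and 52.1 versus 32.1 and 33.0 at P8. The libraries labelled cKO were the higher at P1 and P6 and the lower at P8, without overlap. *Thbs3* was up-regulated 1.56-fold at P6 (0.64 ± 0.076, adjusted p = 0.000263) and down-regulated 1.55-fold at P8 (−0.63 ± 0.076, adjusted p = 0.000184). Both lie just past the 1.5-fold condition. Without the first P6 library labelled WT the P6 difference was 0.58, and without the second P8 library labelled WT that at P8 was −0.58, each under it. At P1 the difference was 0.33 (adjusted p = 0.0251), below 1.5-fold.

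Among the relatives and receptors of the thrombospondins, 6 of 8 listed genes were tested. *Cd36*, a scavenger receptor for thrombospondin 1, was down-regulated at P6 (−2.06, adjusted p = 7.09e-07) and up-regulated at P8 (2.08, adjusted p = 3.56e-07). *Cacna2d3*, an α2δ calcium channel subunit, was down-regulated at P8 (−2.90, adjusted p = 9.78e-05) from 5.68 to 0.756 CPM. *Cacna2d1*, which encodes the synaptogenic receptor α2δ-1, was at 8.57 CPM for WT and 16.9 for cKO at P1 (0.98, adjusted p = 0.0907) and was not called at any time point. *Cd36* is also a macrophage gene. Of 8 microglial markers, 1 was down-regulated at P6 (*Tmem119*, −0.74), and 5 were up-regulated and 1 down-regulated at P8 (*Tmem119*, −1.38). Their summed CPM at P8 was 2008 to 2096 for WT and 3863 to 3904 for cKO, and at P6 1811 to 1893 and 1854 to 1949.8. The part of microglia in the *Cd36* result was not tested.

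*Sparc* (ENSMUSG00000018593, GRCm38 chr11:55394500-55423183, minus strand) encodes a collagen-binding matricellular protein and was the most abundant of the 8 genes per kilobase in all 6 groups. It ranked between 24 and 47 among 17902 genes on that scale. CPM was 1817 and 1829 versus 2468 and 2425 at P1, WT label first. The P6 pairs were 3639 and 3601 versus 6627 and 6075, and the P8 pairs 3969.9 and 3987 versus 2819 and 2732. As for *Thbs1*, the libraries labelled cKO were the higher at P1 and P6 and the lower at P8. *Sparc* was up-regulated 1.75-fold at P6 (0.81 ± 0.038, adjusted p = 6.02e-07). The differences at P1 (0.42, adjusted p = 0.000127) and P8 (−0.52, adjusted p = 6.49e-06) passed the adjusted p but not the fold condition. It was up-regulated from P1 to P6 under both labels (0.99 for WT, 1.38 for cKO) and down-regulated from P6 to P8 under the cKO label (−1.19, adjusted p = 3.15e-08). At P6 it thus differed in the opposite direction to the collagen markers listed above.

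*Sparcl1* (ENSMUSG00000029309, GRCm38 chr5:104079111-104113733, minus strand, overlapping *Gm26703*) encodes hevin, an abundant astrocyte product in the adult brain. CPM was 103 and 105 (WT) versus 114 and 116 (cKO) at P1, then 57.8 and 60.7 versus 57.0 and 62.9 at P6, then 77.4 and 85.3 versus 18.9 and 20.04 at P8. The labels overlapped at P6 and were farthest apart at P8, where both libraries labelled cKO were below all 10 others. *Sparcl1* was down-regulated 4.18-fold at P8 (−2.06 ± 0.073, adjusted p = 6.88e-08). At P1 the difference was 0.15 (95% interval −0.0097 to 0.31, adjusted p = 0.264) and at P6 0.016 (−0.14 to 0.18, adjusted p = 0.912). From P1 to P6 it was down-regulated under both labels, by −0.81 for WT and −0.94 for cKO, and from P6 to P8 under the cKO label (−1.62, adjusted p = 2.26e-07).

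Astrocyte markers differed at P8 too. Of the 9, 5 were down-regulated in the libraries labelled cKO, and the summed CPM of the list was 1566 to 1949.4 for WT and 687 to 702 for cKO. *Aqp4*, the astrocytic water channel, differed by −2.01 (adjusted p = 7.87e-08) and *Gfap*, the intermediate filament of astrocytes, by −1.07 (adjusted p = 9.68e-07). The glutamate transporter *Slc1a3* differed by −0.44 and was not called, and *Aldh1l1*, a folate enzyme used as a general astrocyte marker, was at 51.8 CPM for WT and 72.7 for cKO (0.49, adjusted p = 0.000446, under 1.5-fold). At P6, 1 of the 9 was down-regulated, with sums of 1518 to 1705 and 1404 to 1542, and at P1 1 was up-regulated, with sums of 2216 to 2253 and 2109 to 2154. The part of astrocyte number in the *Sparcl1* result was not tested.

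Of 6 other members of the SPARC family listed, 5 were tested, with 3 up-regulated at P1, 4 down-regulated at P6 and 4 down-regulated at P8. *Smoc2*, a calcium-binding matrix protein, differed by 1.43, −6.19 and −3.64 at the 3 time points (adjusted p = 0.0258, 3.47e-06 and 1.93e-05). *Spock3*, a testican, went from 0.379 to 4.11 CPM at P1, from 25.8 to 0.626 at P6 and from 104 to 2.07 at P8, WT label first, and was called each time. *Smoc1* was down-regulated at P6 (−2.71) and P8 (−3.91), with −0.49 at P1. The family members called at P6 and P8 were thus all lower under the cKO label, while *Sparc* was up-regulated at P6.

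*Gpc4* (ENSMUSG00000031119, GRCm38 chrX:52053021-52165252, minus strand) encodes glypican 4, which is anchored in the membrane by a lipid and can be shed. CPM was 331 and 317 (WT) versus 351 and 344 (cKO) at P1, then 473 and 489 versus 612 and 582 at P6, then 205 and 205 versus 323 and 315 at P8. The libraries labelled cKO were above those labelled WT at each time point. *Gpc4* was up-regulated 1.55-fold at P8 (0.63 ± 0.039, adjusted p = 2.14e-06). The differences of 0.10 at P1 (95% interval 0.015 to 0.19, adjusted p = 0.158) and 0.31 at P6 (adjusted p = 0.000327) did not meet both conditions. Between P6 and P8 it was down-regulated under both labels, by −1.23 for WT and −0.91 for cKO.

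*Gpc6* (ENSMUSG00000058571, GRCm38 chr14:116925315-117976544, plus strand, overlapping *Mir6239*) encodes glypican 6 and lies in one of the longer genes of the genome. CPM was 30.4 and 14.6 (WT) versus 20.3 and 43.3 (cKO) at P1, then 78.6 and 115 versus 45.2 and 46.1 at P6, then 182 and 316 versus 35.9 and 36.3 at P8. The labels overlapped at P1, and the libraries labelled WT were the higher at P6 and P8 but far from each other. *Gpc6* was down-regulated 6.91-fold at P8 (−2.79 ± 0.45, 95% interval −3.80 to −1.78, adjusted p = 0.00109). At P6 the difference was −1.08 ± 0.42 and was not called (adjusted p = 0.0973), although it was with the P6 libraries fitted alone (adjusted p = 0.0117). With the WT label it was up-regulated 4.31-fold from P1 to P6 (2.11, adjusted p = 0.00426), or by 2.72 on the log2 scale without the first P1 library labelled WT, and 2.57-fold from P6 to P8 (adjusted p = 0.0339). The second of these calls was lost without either P6 library labelled WT (adjusted p = 0.172 and 0.0627), without the second P8 library labelled WT (0.210) and without either P8 library labelled cKO (0.0501 each). The summed fibroblast and meningeal markers given above were also lower under the cKO label at P6 and P8, at 2413 to 2589 and 8100.3 to 8349.7 CPM, and their part in the *Gpc6* result was not tested.

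The other glypicans and the enzymes that build and edit heparan sulfate were read for the same libraries. *Gpc3*, a glypican of mesenchymal cells, was up-regulated at P1 (2.11) and down-regulated at P6 (−3.37) and P8 (−3.22), as *Thbs2* was. *Gpc2* was down-regulated at P6 (−1.47, adjusted p = 0.0136). Of 13 heparan sulfate genes, 2 were up-regulated at P1, 3 up- and 4 down-regulated at P6, and 1 up- and 6 down-regulated at P8. *Hs6st2*, a 6-O-sulfotransferase, differed by 1.46, −3.12 and −1.71, and *Sulf1*, which removes 6-O-sulfate, by 0.78, −1.15 and −1.27, all called. *Notum*, also on this list, was down-regulated at P6 (−1.08) and P8 (−2.43) from WT levels of 5.29 and 5.36 CPM.

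**Figure D3:**
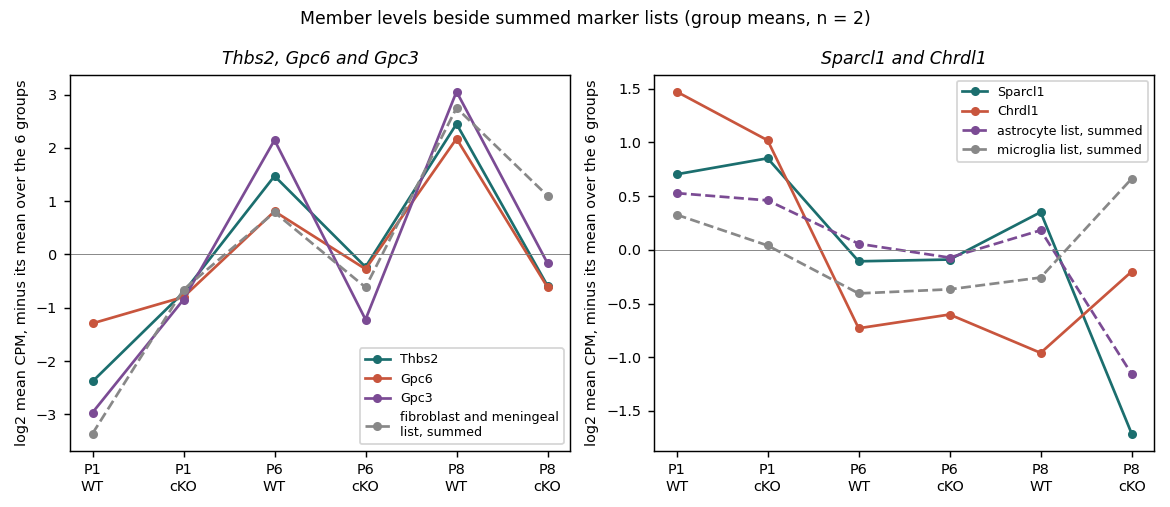
Log2 of the group mean CPM (n = 2) relative to the mean of the 6 group values, for *Thbs2*, *Gpc6* and *Gpc3* beside the summed fibroblast and meningeal markers (left), and for *Sparcl1* and *Chrdl1* beside the summed astrocyte and microglial markers (right); the lines only join the groups. In the P8 libraries labelled cKO the fibroblast sum is 8100.3 to 8349.7 CPM and *Thbs2* is at 328 and 329.6. In P6 WT they are at 6609.7 to 6664 and at 1401 and 1339. The genes of the list do not move alike between these groups. *Col1a1* and *Col1a2* make up most of both sums and are higher in P8 cKO (3960 and 2990 against 2723 and 2354 CPM). Also higher are *Aldh1a2* (22.5 against 4.88) and *Dpt* (0.197 against 0). *Col3a1* (1144 against 1209), *Dcn* (45.2 against 178) and *Foxc1* (56.0 against 154) are lower. So are *Lum* (3.77 against 7.89), *Crabp2* (3.37 against 4.81) and *Ptgds* (0.49 against 0.78).

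*Chrdl1* (ENSMUSG00000031283, GRCm38 chrX:143285674-143394262, minus strand) encodes Chordin-like 1, a secreted antagonist of bone morphogenetic proteins (BMPs). CPM was 148 and 151 (WT) versus 105 and 114 (cKO) at P1, then 31.9 and 33.0 versus 33.3 and 37.7 at P6, then 26.5 and 28.9 versus 47.6 and 46.0 at P8. The libraries labelled cKO were the lower at P1 and the higher at P8. *Chrdl1* was up-regulated 1.69-fold at P8 (0.76 ± 0.077, adjusted p = 5.94e-05). The P1 difference of −0.45 (adjusted p = 0.00576) was under 1.5-fold, and that at P6 was 0.13 (95% interval −0.046 to 0.30, adjusted p = 0.275). From P1 to P6 it was down-regulated under both labels, 4.61-fold for WT (adjusted p = 4.54e-08) and 3.08-fold for cKO (adjusted p = 5.08e-07). The 8 microglial markers had median differences of −0.39, 0.018 and 0.84 at the 3 ages, of the same sign as those of *Chrdl1*. The summed CPM of the microglial markers was 3045 to 3112 for WT and 2503 to 2544 for cKO at P1. At P8 it was 2008 to 2096 and 3863 to 3904. The part of microglia and of astrocyte number in the *Chrdl1* result was not tested.

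Of 7 other secreted BMP antagonists listed, 6 were tested, with 2 up-regulated at P1, 2 up- and 2 down-regulated at P6, and the same numbers at P8. *Grem1* was up-regulated at P6 (0.84) and P8 (5.40, adjusted p = 1.16e-07), from 0.551 to 23.1 CPM at P8. *Bmper* was up-regulated at P1 (2.20) and down-regulated at P6 (−2.16), with −0.35 at P8. At P8, *Chrdl1* and *Grem1* were therefore both up-regulated.

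Per kilobase the balance within each pair of relatives also differed between the labels. In the libraries labelled WT, *Thbs1* exceeded *Thbs2* by 15.1 ± 0.56-fold at P1, 2.37 ± 0.042-fold at P6 and 1.59 ± 0.031-fold at P8 (SD, n = 2). In those labelled cKO the ratio was 8.35 ± 0.20, 15.7 ± 0.60 and 10.4 ± 0.099. The ratio was thus lower under the cKO label at P1 and higher at P6 and P8, in each case by more than the spread between replicates.

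*Sparc* to *Sparcl1*, the antagonist to the synaptogenic protein, stood at 13.6 ± 0.12 for WT and 16.5 ± 0.47 for cKO at P1. It was 47.4 ± 2.0 against 82.6 ± 10.8 at P6, and 38.0 ± 2.5 against 110.6 ± 7.0 at P8. The cKO-labelled libraries had the higher ratio at all 3 time points, without overlap. *Gpc4* to *Gpc6* was 39.4 ± 18.5 and 30.6 ± 16.0 at P1, where the spread covers the difference, then 12.4 ± 3.0 against 31.7 ± 1.5 at P6 and 2.15 ± 0.82 against 21.4 ± 0.55 at P8. With 2 libraries against 2 an exact permutation test cannot go below p = 0.333, so the ratios are given without a test.

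**Figure D4:**
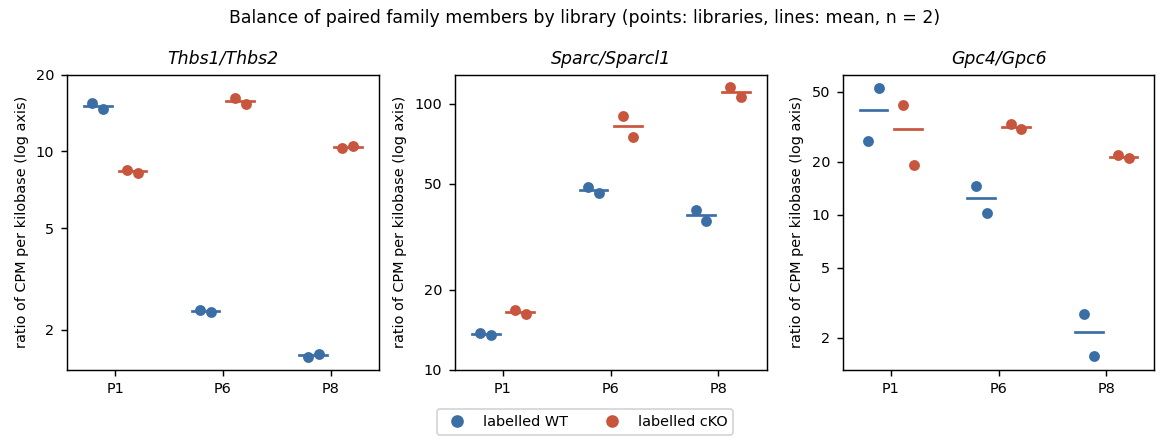
Ratio of CPM per kilobase within 3 pairs of relatives in each library (points) with the group mean (lines, n = 2), on log axes that do not start at 0. The *Thbs1* to *Thbs2* ratio falls to 1.59 in the P8 libraries labelled WT and is 10.4 in those labelled cKO, and *Gpc4* to *Gpc6* is 2.15 against 21.4.

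On the same scale *Sparc* and *Thbs1* led in every group, *Sparc* from 481 to 1677 and *Thbs1* from 204 to 941 CPM per kilobase. *Thbs2* rose from rank 3736 of 17902 genes in P1 WT to rank 79 in P8 WT, at 386 ± 3.5 CPM per kilobase. *Gpc4* lay between 77.4 and 225.3. At the low end, *Chrdl1* (6.93 ± 0.17), *Thbs3* (6.75 ± 0.14) and *Sparcl1* (6.63 ± 0.27) lay within each other's spread in P8 cKO. Across the 6 groups no neighbouring groups overlapped for *Thbs1*, *Thbs2*, *Sparc* or *Chrdl1*. *Thbs3* overlapped between P1 WT and P8 WT and between P1 cKO and P6 cKO, *Gpc4* between P1 WT and P8 cKO, and *Gpc6* between P1 cKO and both P1 WT and P8 cKO. *Sparcl1* overlapped between the labels at P6.

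By donor age, 6 of the 8 genes were called between P1 and P6 in the libraries labelled WT (23.1% of all genes, 12.2% up and 10.9% down). Between P6 and P8, 3 were called (18.9%, 8.66% up and 10.3% down). In those labelled cKO, 5 were called between P1 and P6 (21.4%, 11.0% up and 10.4% down) and 5 between P6 and P8 (24.0%, 11.9% up and 12.2% down). The 5 of the last step, *Thbs1*, *Thbs3*, *Sparc*, *Sparcl1* and *Gpc4*, were down-regulated, while with the WT label *Thbs2* and *Gpc6* were up-regulated and *Gpc4* down-regulated at that step. *Gpc4* from P1 to P6 was just short of the fold condition with the WT label, at 0.57 or 1.49-fold, and was called with the cKO label at 0.78.

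The change in the genotype difference between time points was tested directly as an interaction, called at an adjusted p below 0.05. Between P1 and P6 it was called for 5 of the 8 genes (15.3% of all genes), between P6 and P8 for 7 (21.5%) and between P1 and P8 for 8 (25.7%). Of the 5 calls between P1 and P6, those of *Thbs1* and *Gpc4* were lost with the compared groups alone (adjusted p = 0.0599 and 0.0795), which leaves 3. That of *Thbs1* was also lost without the first P1 library labelled WT, either P1 library labelled cKO or the first P6 library labelled cKO (0.0584 to 0.0869). That of *Gpc4* was lost in 9 of the 12 fits that leave out 1 library (0.0501 to 0.116), and kept without the second library of P1 WT, P6 WT or P6 cKO. *Thbs2* had the largest, −3.38 ± 0.050 between P1 and P6 and −4.71 ± 0.051 between P1 and P8 (adjusted p = 7.68e-10 and 9.49e-11). *Thbs1*, *Thbs3* and *Sparc* had like changes between P6 and P8, of −1.35, −1.27 and −1.33, and *Sparcl1* had −2.08. *Gpc4* and *Chrdl1* moved the other way between P1 and P8, by 0.53 and 1.21. These contrasts share libraries with each other and with the comparisons within a time point.

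The genes whose 6 group means were nearest to each member in pattern were found over 12169 genes, by the root mean square difference of centred log2 CPM. *Col5a2*, a fibrillar collagen, was nearest to *Thbs1* at 0.19 and *Sparc* itself was next at 0.21. For *Sparc* they were *Ltbp3* (0.11) and *Col5a2* (0.12). *Sparcl1* was nearest to *Aqp4* (0.23) and *Lbp* (0.25), and *Thbs2* to *Cd80* (0.32) and *Tspan18* (0.34). The nearest to *Thbs3* was *Hacd1* (0.059), to *Gpc4* *Palld* (0.047), to *Gpc6* *Rgs7bp* (0.19) and to *Chrdl1* *Sla* (0.17). The median gene lay between 0.41 and 1.60 from a member, and the distances were not tested.

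The neuronal partners of these factors, and other secreted factors that act on synapses, were read from fixed lists. Of 12 partners 10 were tested, with 2 up-regulated at P6 and 1 up- and 4 down-regulated at P8. The neurexin gene *Nrxn2* (−1.82) and the receptor phosphatase *Ptprd* (−1.56) were down-regulated at P8. Of 11 other secreted factors 10 were tested, with 5 up-regulated at P1, 1 up- and 2 down-regulated at P6, and 4 up- and 3 down-regulated at P8. The heparin-binding factors *Ptn* and *Mdk*, pleiotrophin and midkine, were up-regulated at P1 (0.75 and 1.27) and down-regulated at P8 (−3.05 and −2.53), and *Mdk* was also down-regulated at P6 (−1.95). *Nptx2*, a neuronal pentraxin, was up-regulated at P1 (1.59) and P8 (2.43) and stood at no more than 2.40 CPM in any group mean.

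Markers of the remaining cell types were read in the same way. Of 4 neuronal markers tested, 1 was up-regulated at P1, 3 at P6 and 2 at P8. Their summed CPM at P6 was 183 to 218 for WT and 400.4 to 403 for cKO. Of 4 endothelial markers, 2 were up-regulated at P1, 3 down-regulated at P6, and 1 up- and 2 down-regulated at P8, with sums of 148 to 161 against 36.9 to 39.9 CPM at P8. Of 5 mural markers, 1 was up-regulated at P1, 1 up- and 2 down-regulated at P6, and 1 up-regulated at P8, with sums between 2486 and 4555 over all libraries. Of 6 oligodendrocyte markers, 2 were down-regulated at P6, and 1 was up- and 1 down-regulated at P8, with sums between 76.6 and 129. Of 3 ependymal and choroid plexus markers, 1 was up-regulated at P1, 2 up- and 1 down-regulated at P6, and 2 up-regulated at P8, with sums between 29.6 and 232. Their part in the results for the 8 genes was not tested.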

How the data were processed

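RNA-seq counts from 12 libraries of primary astrocytes were used, 2 for each genotype and time point. The authors captured mRNA, mapped reads to GRCm38 (mm10) with HISAT2 and deposited whole-number counts per gene without normalization. For the counting program, annotation, strand setting and handling of shared reads, the sources used here give nothing, and reads of overlapping genes could have gone to either gene. Counts were fitted in R 4.3.3 with edgeR 4.0.16 (TMM, filterByExpr, 1 mean per group, quasi-likelihood test), with p adjusted over the 17938 genes tested. TMM factors were 0.943 to 1.07. Averaged over genes, replicates differed by more than counting noise (chi-square per degree of freedom 30.5 to 47.1). This average does not speak for single genes, such as *Gpc4* at 205.4 and 205.1 CPM in P8 WT. Each library counts as a sample because its label names it a biological replicate. Lengths are exon unions from GENCODE for GRCm38. The scripts were tested on simulated data. The named genes were the 8 genes in every comparison, up to 3 of each related list, namely the called ones averaging at least 1 CPM that had the largest absolute differences, the 3 markers of a list with the highest mean CPM, and the 2 genes nearest to each of the 8 in pattern (minimum average 5 CPM). *Cacna2d1*, *Aldh1l1*, *Dpt*, *Lum*, *Dcn*, *Foxc1*, *Crabp2*, *Ptgds*, *Aldh1a2* and *Tmem119* were named after their values were seen. Of the genes this rule names, some are not reported here. Members, lists and tests were chosen with earlier results of these data known. The alternatives were DESeq2 1.42.0 on all libraries, its size factors in edgeR, the replicate number as a block, no low-count filter, the compared groups alone, other cut-offs, and each library left out.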

Additional observations from a re-analysis of the deposited data

Results flagged for a closer look

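The difference between the labels changed from one time point to another, as tested by an interaction term in edgeR on all libraries, in these cases. The values are log2, and a negative one means that the cKO label moved down relative to the WT label. From P1 to P6 the change was 0.21 for *Thbs1* (adjusted p = 0.0225), -3.38 for *Thbs2* (7.68e-10), 0.39 for *Sparc* (0.00112), 0.21 for *Gpc4* (0.0313) and 0.58 for *Chrdl1* (0.00612). The calls of *Thbs1* and *Gpc4* were lost with the compared groups alone (0.0599 and 0.0795) and in several fits with 1 library left out. From P6 to P8 it was -1.35 for *Thbs1*, -1.33 for *Thbs2*, -1.27 for *Thbs3*, -1.33 for *Sparc* and -2.08 for *Sparcl1*, with adjusted p between 2.91e-07 and 4.12e-05, and 0.32 for *Gpc4* (0.00272) and 0.63 for *Chrdl1* (0.00307). From P1 to P8 it was -1.14 for *Thbs1*, -4.71 for *Thbs2*, -0.96 for *Thbs3*, -0.94 for *Sparc*, -2.21 for *Sparcl1*, -3.29 for *Gpc6*, 0.53 for *Gpc4* and 1.21 for *Chrdl1*, with adjusted p between 9.49e-11 and 0.00354. That of *Gpc6* was -3.90 without the first P1 library labelled WT and -2.64 without the second P1 library labelled cKO, and was called in both fits. Groups of 2 libraries were too small to look for a library that stands apart.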

How the results depend on the processing

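Each of 80 member results (8 genes in 10 comparisons) was computed under 17 other settings. Direction and call were the same in 1326 of 1360 cases, and 68 of the 80 kept both in all 17. Many of these cases left out a library outside the compared groups, which hardly moves the difference. The share kept is therefore not a measure of robustness. Directions reversed only for differences that were not called: *Gpc6* at P1 (-0.15 to 1.12 with each library left out, negative without the second P1 library labelled cKO), *Sparcl1* at P6 without the first P6 library labelled WT (-0.018) or the second labelled cKO (-0.056, with a highest value of 0.086), and *Thbs3* from P1 to P6 under the cKO label without the second P1 library labelled cKO (0.032, with a lowest value of -0.092). The shares of all genes given above hold for the main cut-offs and were not computed for the others. With a fold of at least 2, 1 gene was up-regulated at P1, 1 at P6 and 0 at P8. At that cut-off 0 were down-regulated at P1, 1 at P6 and 3 at P8. The same cut-off left 1 down-regulated from P1 to P6 under each label, 1 up-regulated from P6 to P8 under WT and 2 down-regulated at that step under cKO, and 1 and 5 interactions (P1 to P6 and P1 to P8). With no condition on fold, 4 were up- and 1 down-regulated at P1, 6 up- and 2 down-regulated from P6 to P8 under WT, and 1 up-regulated at that step under cKO. The unadjusted p with 1.5-fold gave 2 down-regulated at P6 and 2 interactions from P1 to P6, and the compared groups alone gave 2 and 3. With each library left out, 2 to 3 genes rose at P6 and 3 to 4 fell at P8, 1 to 2 were up-regulated from P6 to P8 under WT, and 3 to 5 interactions were called from P1 to P6. Those of *Thbs1* and *Gpc4* at 0.21 were the calls lost there (adjusted p up to 0.116). The causes were not tested.

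*Gpc4* from P1 to P6 under WT passed 1.5-fold without the first P1 or the first P6 library labelled WT (0.60 and 0.59). The *Thbs3* interaction from P1 to P6 was called with DESeq2 (adjusted p = 0.0218), and that of *Gpc6* from P6 to P8 with DESeq2 (0.0482), with the compared groups alone (0.0176) and without either P1 library labelled cKO (0.0488 and 0.0490). With the replicate number as a block, the members called numbered 2 (P1), 4 (P6) and 6 (P8) as before, and no call changed. Deviations of same-numbered libraries from their group means correlated between -0.077 and 0.10 over 10852 genes. Between the labels at the same age the values were 0.00092 (P1), -0.055 (P6) and -0.077 (P8). They show no pairing by number, but cannot exclude a shared preparation with a small effect. Depth did not limit the members, which had at least 1192 counts in every library.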
